A study of Mus musculus with 8 samples.

Results

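Retinoic acid signaling was examined in the hypothalamus (HT) through 9 genes: the binding proteins *Crabp1* and *Rbp4*, the synthesizing enzyme *Aldh1a1*, the receptors *Rara*, *Rarb*, *Rxra*, *Rxrb* and *Rxrg*, and the degrading enzyme *Cyp26b1*. All probes that the array files name for these genes were taken, which gave 14 of the 55681 probes on the array, for 9 of the 22328 named genes. The genes were chosen by name with the difference between the maternal separation (MS) and control groups in these same mice already known, so the differences, intervals and p-values of these genes from the fit over all probes are given as descriptions and not as independent evidence. The data came from 8 male C3H/HeN mice, 4 control and 4 MS, with 1 array per mouse. MS mice had been separated from their dam in daily sessions from postnatal day (PND) 2 to 14, and control mice had not. The dams of MS mice received chronic unpredictable stress during these sessions. All mice were weaned on PND 21, housed by condition, and performed an operant task for food as adults. They were then food deprived before the tissue was taken. The labels name no transgene or deletion in either group and give no age at dissection.

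Retinoic acid is the active form of vitamin A. Retinol travels in blood bound to RBP4 and is oxidized in the cell first to retinal and then, by enzymes of the ALDH1A family, to retinoic acid. Retinoic acid binds RAR receptors, which sit on DNA as pairs with RXR receptors, and CYP26 enzymes break it down. In the adult rodent HT, tanycytes, the cells that line the floor of the third ventricle, can make retinoic acid, and seasonal changes of this pathway with day length have been described.

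The labels number the mice 6.2, 8.2, 8.4 and 8.5 in the control group and 5.3, 7.1, 7.2 and 7.6 in the MS group, and values are given below in this order. The number before the dot is shared by up to 3 mice of a group and by none across groups, so if it marks a litter or cage, that and the group cannot be told apart. Litters are not named, and p-values and intervals measure the spread between these mice. The limma fit draws the spread of each probe toward that of all probes, so an interval does not rest on its probe alone. A signal is the log2 intensity of a probe minus the 75th percentile of its array, so 0 is the level of that percentile and levels of different probes are not comparable. The 75th percentile lay between 853 and 967 intensity units in control mice and between 567 and 1018 in MS mice. Probes of the hypothalamic peptides *Pomc*, *Avp* and *Oxt* were bright in all 8 mice (at least 5.80 for *Pomc*, 6.35 for *Avp* and 6.30 for *Oxt*). The peptides *Hcrt* (orexin) and *Trh* were lowest in MS mice 5.3 and 7.2: *Hcrt* was 3.46 and 3.54 there and at least 5.51 in the other 6 mice. The mean of 7 pituitary markers was 3.38 in control mouse 6.2 and at most 1.31 elsewhere. MS mouse 7.6 and control mouse 8.5 stood apart in an earlier analysis of these arrays, and values without these mice are given where they changed a difference most.

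All 14 probes entered the fit, which kept the 37314 probes that stood well above background on 4 or more arrays, and 13 of the 14 were well above background on all 8 arrays. In the limma fit over all probes, 0 of the 14 passed an adjusted p under 0.05 (0.00% of all probes tested), and 1, the *Crabp1* probe, had an unadjusted p under 0.05 (3.40% of all, 1270 probes). The 4 MS values lay apart from the 4 control values for 1 of the 14 probes, again *Crabp1* (2.03% of all). The log2 difference, MS minus control, was above 0 for 11 probes and below 0 for 3, with a median of 0.04 beside a median of -0.00 over all probes tested. For 12 of the 14 probes the 95% confidence interval lay within a 1.5-fold change in either direction, which held for 84.0% of all probes tested. The exceptions were *Cyp26b1* and 1 of the 3 probes of *Rarb*.

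**Figure D1:**
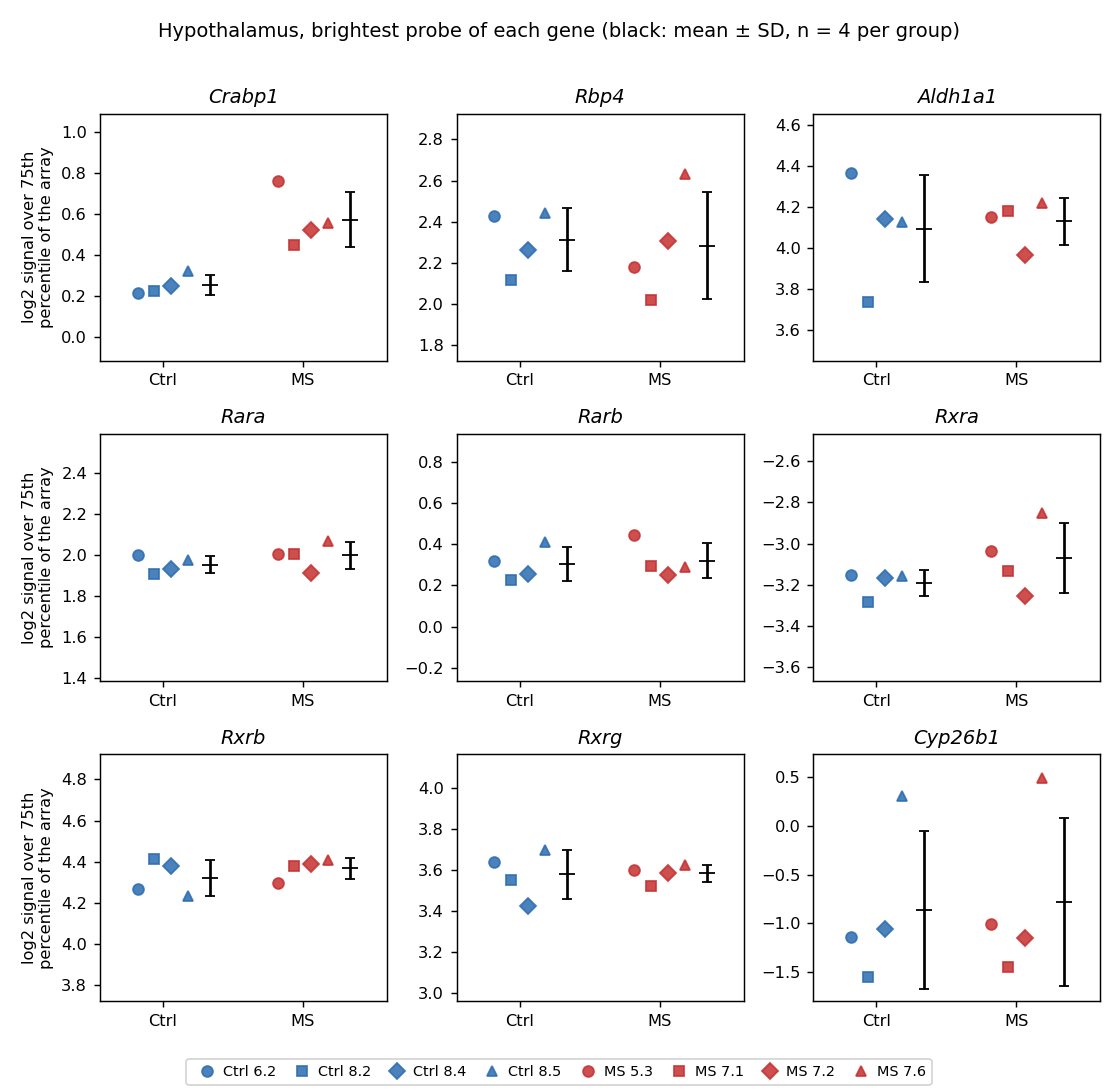
Log2 signal over the 75th percentile of the array (vertical axis) for the brightest probe of each of the 9 genes, with control mice in blue, MS mice in red, a marker shape for each mouse, and the mean ± SD of each group (n = 4) in black. The scales differ between panels: *Crabp1* is the gene whose groups do not overlap, and *Cyp26b1* has 1 mouse of each group far above the rest.

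*Crabp1* encodes a small protein that binds retinoic acid in the cytoplasm and limits how much of it reaches the nucleus. It was measured by 1 probe, at bases 344 to 403 of its transcript (mm9 chr9:54616192-54616251, + strand). The sequence of this probe is shown because the one separation between the groups rests on it.
Crabp1 probe: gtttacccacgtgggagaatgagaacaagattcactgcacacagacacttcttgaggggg
The *Crabp1* signal was 0.21, 0.23, 0.25 and 0.32 in the control mice and 0.76, 0.45, 0.52 and 0.56 in the MS mice. All 4 MS mice were above all 4 control mice, and the lowest MS mouse and the highest control mouse were 0.13 apart. The means were 0.25 ± 0.05 (SD, n = 4) and 0.57 ± 0.13 (SD, n = 4), a log2 difference of 0.32 (SE 0.08, 95% confidence interval 0.15 to 0.49), or 1.25-fold (1.11 to 1.41). Control mice lay close together, and the spread among MS mice came mostly from mouse 5.3.

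The log2 difference of *Crabp1* was 0.40 in the first row of the slide and 0.23 in the second, each with 2 mice of each group. Without MS mice 5.3 and 7.2, in which *Hcrt* was low, it was 0.25, and without MS mouse 7.6 and control mouse 8.5 it was 0.35. Over the 18 other settings and choices of mice it lay between 0.23 and 0.40. Since the groups do not overlap, the sign was fixed in the 12 of these that only leave out mice, so their direction is no sign of stability. The lowest adjusted p in limma over these settings was 0.401, so the difference did not pass the correction for the number of probes under any of them. A list of 9 hypothalamic markers that includes *Hcrt* and *Trh* had r = -0.72 with *Crabp1* over the 8 mice, on deviations from the group means, while the list of 7 arcuate neuron markers had r = 0.18. Of the 9, *Nkx2-1* was highest in MS mouse 5.3, as *Crabp1* was. The part of these markers in the result was not tested.

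**Figure D2:**
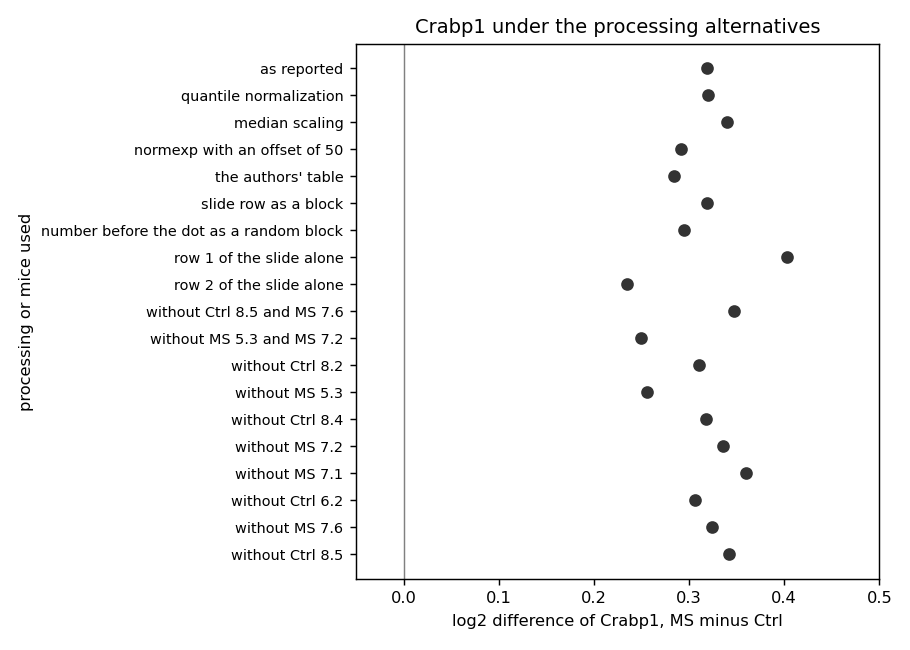
Log2 difference of *Crabp1*, MS minus control (horizontal axis), as reported and under each processing alternative or with the named mice left out (vertical axis). All points lie between 0.23 and 0.40, where the sign is fixed for choices of mice because the groups do not overlap, and the lowest and the highest are the rows of the slide taken alone.

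*Rbp4* encodes the carrier of retinol in blood and had 1 probe (mm9 chr19:38191120-38191179, - strand). Its signal was 2.43, 2.12, 2.26 and 2.44 in the control mice and 2.18, 2.02, 2.31 and 2.63 in the MS mice. The groups overlapped throughout, with both the lowest and the highest value in the MS group. The log2 difference was -0.03 (-0.34 to 0.29), and its sign turned under 6 of the 18 settings. It was -0.14 without MS mouse 7.6, 0.01 without control mouse 6.2 and 0.06 without MS mouse 7.1. The level in a mouse went with the mean of the arcuate neuron markers *Pomc*, *Cartpt*, *Agrp*, *Tac2*, *Ghrh*, *Npy* and *Kiss1*. The correlation was r = 0.95 over 8 mice, on deviations from the group means, a description over few mice that share a slide. The next closest list, markers of meningeal fibroblasts (cells of the membranes around the brain), had r = 0.81 with *Rbp4*. Single arcuate markers did not all follow: *Tac2* was lowest of its group in control mouse 8.5 and MS mouse 7.6, where *Rbp4* was highest.

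*Aldh1a1*, which oxidizes retinal to retinoic acid, had 1 probe (mm9 chr19:20717764-20717823, + strand). Its signal was 4.37, 3.74, 4.14 and 4.13 in the control mice and 4.15, 4.18, 3.96 and 4.22 in the MS mice. The control group held both extremes, in mice 6.2 and 8.2, and the MS mice lay between them. The log2 difference was 0.04 (-0.26 to 0.33), and it was 0.13 without control mouse 6.2 and -0.08 without control mouse 8.2. Of the cell type lists, the mean of 4 astrocyte markers was closest to *Aldh1a1* across mice (r = 0.90 over 8 mice, on deviations from the group means). Single markers did not all follow. *Gfap* and *Aqp4* were lowest of all mice in control mouse 8.2, as *Aldh1a1* was. *Slc1a3* was lowest in control mouse 8.4 and *Aldh1l1* in control mouse 8.5. In bulk tissue, fewer cells of a type and less RNA per cell cannot be told apart.

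*Rara* and *Rarb* encode receptors that bind retinoic acid. The brighter *Rara* probe (mm9 chr11:98836197-98836256, + strand) measured 2.00, 1.91, 1.93 and 1.97 in the control mice and 2.00, 2.01, 1.91 and 2.07 in the MS mice. It was the steadiest of the 14 probes, with a pooled SD within groups of 0.05 beside a median of 0.14 over all probes tested, and 95.1% of probes had a larger SD. Its log2 difference was 0.04 (-0.08 to 0.17). The dimmer *Rara* probe lies 847 bases upstream and had a difference of -0.04 (-0.31 to 0.23), which was 0.19 in the first slide row and -0.28 in the second. The probes did not follow each other over the 8 mice (r = -0.05).

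*Rarb* had 3 probes. The brightest (mm9 chr14:17263367-17263426, - strand) measured 0.32, 0.23, 0.26 and 0.41 in the control mice and 0.44, 0.29, 0.25 and 0.29 in the MS mice. These overlapped, and the log2 difference was 0.02 (-0.14 to 0.17). The second probe, at bases 1420 to 1479 of the same transcript (mm9 chr14:17264648-17264707, - strand), had a difference of 0.01 (-0.18 to 0.20), so at both places the groups were within 0.02 of each other on the log2 scale. Its sequence is shown beside that of *Crabp1*, as a probe in which the groups were nearly level.
Rarb probe: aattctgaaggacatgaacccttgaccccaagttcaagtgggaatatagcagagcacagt

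The third *Rarb* probe was designed on another transcript record, 386776 bases from the second, and was the only one of the 14 that was not well above background on every array, with 5 of the 8 arrays (2 control, 3 MS) above it. It measured -5.35, -5.55, -5.95 and -5.45 in the control mice and -5.52, -5.13, -5.24 and -5.04 in the MS mice. MS mice 7.1, 7.2 and 7.6 were above every control mouse, and mouse 5.3 was within the control range. The log2 difference of 0.34 (-0.00 to 0.69) was the largest of the 14 but was 0.095 in the authors' table of normalized values. The third probe therefore rests on signals near the background of the arrays.

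The promoter of *Rarb* was set beside these levels because it holds the textbook retinoic acid response element. Receptor pairs bind direct repeats of a half-site, searched here on both strands as AGGTCA with its variants AGTTCA together with GGGTCA together with GGTTCA, in any combination and with 1, 2 or 5 bases between the copies. The windows were those of RefSeq (GRCm38.p6), 250 bases before to 50 after each start, and all 9 genes matched, with 17 windows. A repeat with a spacer of 5 bases was found in 32 of 32851 windows (0.0974%), and *Rarb* was the only one of the 9 genes with it. Repeats with spacers of 1 and 2 bases were in 0.222% and 0.268% of all windows and in none of the 17. The other known retinoic acid target with the long spacer near its start is *Cyp26a1*, a degrading enzyme whose probes were not well above background in enough of these arrays to be tested. Below, capitals mark the half-sites, in the *Rarb* window at chr14:16575498-16575549 (- strand) and the *Cyp26a1* window at chr19:37697756-37697807 (+ strand, where the repeat reads on the opposite strand).
Rarb promoter: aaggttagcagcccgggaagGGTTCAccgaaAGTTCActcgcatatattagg
Cyp26a1 promoter: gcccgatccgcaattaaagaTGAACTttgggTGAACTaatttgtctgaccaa
The *Rarb* repeat ends 37 bases and the *Cyp26a1* repeat 16 bases before the start. A match describes the letters of the window and does not show binding, and the probes of *Rarb* with the highest signal did not separate the groups.

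*Rxra*, *Rxrb* and *Rxrg* encode the RXR partners. *Rxrb* (mm9 chr17:34175279-34175338, + strand) measured 4.27, 4.41, 4.38 and 4.23 in the control mice and 4.29, 4.38, 4.39 and 4.41 in the MS mice. The MS mice lay within the range of the control mice, and the log2 difference was 0.05 (-0.10 to 0.19). The brighter *Rxrg* probe (mm9 chr1:169569624-169569683, + strand) measured 3.64, 3.55, 3.43 and 3.70 in the control mice and 3.60, 3.53, 3.59 and 3.62 in the MS mice. Here too the control mice spread more widely than the MS mice, and the difference was 0.01 (-0.16 to 0.17), with a sign that turned under 9 of the 18 settings. The second *Rxrg* probe, 128 bases away, had a difference of 0.09 (-0.06 to 0.25), above 0 under each setting.

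The *Rxra* probes were dim but above background on all arrays. The brighter one (mm9 chr2:27618781-27618839, + strand) measured -3.15, -3.28, -3.17 and -3.16 in the control mice and -3.03, -3.14, -3.26 and -2.85 in the MS mice. Its log2 difference of 0.12 (-0.09 to 0.33) rested largely on MS mouse 7.6, the highest of the 8, and was 0.05 without it. The other probe, 3465 bases upstream, had a difference of the opposite sign, -0.09 (-0.36 to 0.18), which was -0.28 in the first row of the slide and 0.10 in the second. The *Rxra* probes followed each other more closely (r = 0.59 over 8 mice) than those of *Rara* or *Rxrg* (r = -0.05 and 0.13). The brightest *Rarb* probe had r = 0.27 with the second and 0.01 with the third, and these had r = -0.13 with each other.

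**Figure D3:**
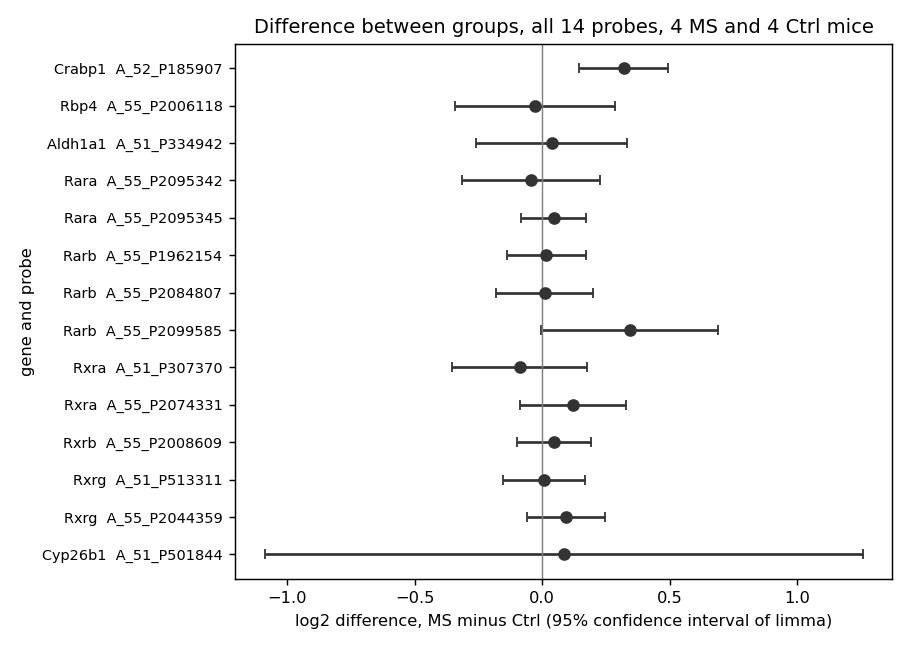
Log2 difference, MS minus control (horizontal axis), with its 95% confidence interval from limma for all 14 probes (vertical axis, gene and probe name), from 4 MS and 4 control mice. *Crabp1* is the one interval that lies wholly right of 0, from 0.15 to 0.49, and *Cyp26b1* has the widest, from -1.09 to 1.26.

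*Cyp26b1* encodes an enzyme that breaks down retinoic acid and keeps its level low in the cells that express it. Its probe (mm9 chr6:84521952-84522011, - strand) measured -1.15, -1.56, -1.06 and 0.31 in the control mice and -1.01, -1.45, -1.16 and 0.49 in the MS mice. Control mouse 8.5 and MS mouse 7.6 stood above the other 6 mice, which lay between -1.56 and -1.01, by at least 2.49-fold, and the highest and lowest mice differed by 4.14-fold. Control mouse 8.5 and MS mouse 7.6 also had the dimmest arrays, with 75th percentiles of 853 and 567 intensity units. Their arrays had the fewest probes well above background, 34948 and 34079. The part of this array trait in the level of *Cyp26b1* was not tested. The means were -0.86 ± 0.81 (SD, n = 4) and -0.78 ± 0.87 (SD, n = 4), and only 1.36% of all probes tested had a larger SD within groups. The log2 difference was 0.08 (-1.09 to 1.26), which became -0.34 without MS mouse 7.6 and 0.48 without control mouse 8.5. With 1 high mouse in each group, the data bounded the group difference of *Cyp26b1* no closer than between 0.47-fold and 2.39-fold.

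The mice with high *Cyp26b1* also had the highest mean of the markers of meningeal fibroblasts (the cells of the membranes around the brain). The same held for the means of the tanycyte and ependymal markers and of the arcuate neuron markers. The tanycyte and ependymal mean was 0.48 in control mouse 8.5 and 0.41 in MS mouse 7.6. The arcuate mean was 3.89 and 4.01 in these mice, beside 3.88 in control mouse 6.2. Single markers of the tanycyte and arcuate lists went both ways. *Col23a1* was highest in MS mouse 7.6 and next in control mouse 8.5. *Foxj1* was lowest of all mice in MS mouse 7.6, and *Npy* and *Tac2* were lowest in control mouse 8.5. On deviations from the group means over the 8 mice, *Cyp26b1* had r = 0.93 with the meningeal list, 0.84 with the tanycyte and ependymal list and 0.82 with the arcuate list. The meningeal markers spanned the widest range of the 3 lists. The mean signal of 7 meningeal markers (*Dcn*, *Col1a2*, *Slc6a13*, *Col1a1*, *Lum*, *Col3a1* and *Igf2*) was 0.60 in control mouse 8.5 and 0.68 in MS mouse 7.6, and at most 0.18 in the other 6. All 7 were above background on all arrays, and over the groups their mean ranged from -0.81 to 0.60 in control and from -0.72 to 0.68 in MS mice. The correlation of *Cyp26b1* with these 7 markers was 0.90 over the 8 mice and 0.74 over the 6 mice without 8.5 and 7.6. *Aldh1a2*, the synthesizing enzyme of the meninges, ranged 4.17-fold between mice, and *Crabp2*, which carries retinoic acid to its receptors, 3.20-fold. Both were highest in MS mouse 7.6 and next in control mouse 8.5, and their correlations with the markers over the 8 mice were 0.86 and 0.88. Without these 2 mice, their correlations with *Cyp26b1* were 0.33 and 0.38 over 6 mice. *Stra6* had r = 0.21 with *Cyp26b1* over the 8 mice. The share of meninges and of the other cell types in each dissection was not measured, and their part in the level of *Cyp26b1* was not tested.

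**Figure D4:**
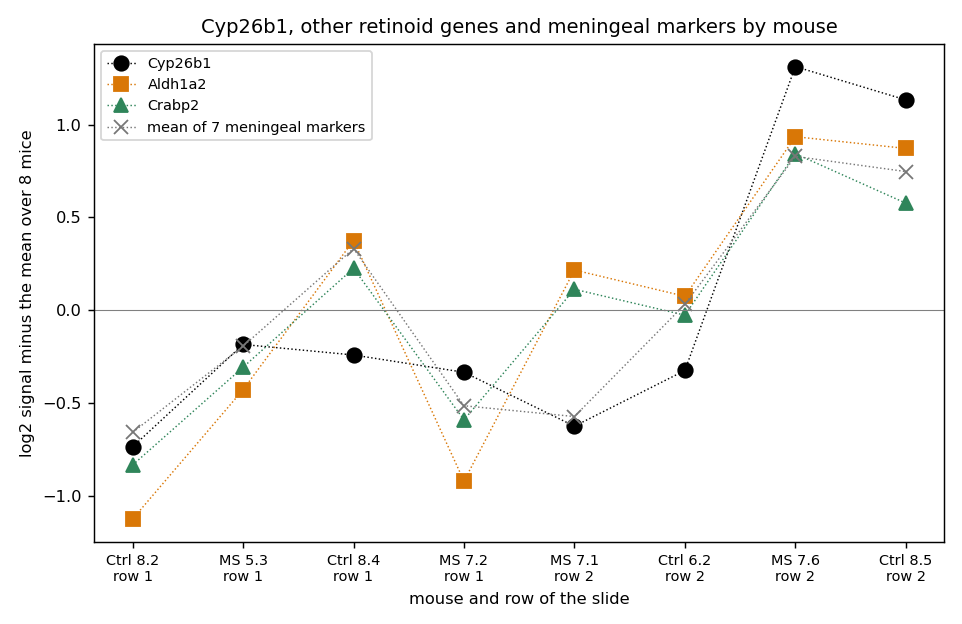
Log2 signal of *Cyp26b1*, *Aldh1a2* and *Crabp2* and the mean of 7 meningeal markers (crosses), each minus its mean over the 8 mice (vertical axis), by mouse in the order of the slide (horizontal axis; dotted lines join the points of a gene only to guide the eye). All 4 series are highest in MS mouse 7.6 and next in control mouse 8.5, and lowest in control mouse 8.2.

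Of 68 further genes of the pathway in 4 lists, 61 were measured, and 0 of them passed the test in either direction, with 0 at an unadjusted p under 0.05 (2.66% of 17314 genes). *Dhrs9*, *Rdh16*, *Adh4*, *Adh7*, *Cyp26a1*, *Cyp26c1* and *Hoxb1* were above background on fewer than 4 arrays (*Rdh16* on 1, the others on 0) and were not tested. Among 22 genes of uptake, storage and oxidation to retinal, 11 had a log2 difference above 0, with a median of -0.01. The retinol-binding *Rbp3* had 0.22 (-0.05 to 0.49), the alcohol dehydrogenase *Adh1* -0.58 (-1.70 to 0.54), the retinol receptor *Stra6* -0.23 (-0.76 to 0.30) and the retinal reductase *Dhrs3* 0.07 (-0.09 to 0.23). *Ttr*, the partner of RBP4 in blood, ranged so widely between mice that its difference of -0.48 had an interval from -1.99 to 1.02.

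Among 6 further genes of synthesis, binding and breakdown the median was -0.04, with 0.03 (-0.83 to 0.89) for *Crabp2*, -0.10 (-1.25 to 1.06) for *Aldh1a2*, -0.13 (-0.82 to 0.56) for *Aldh1a7* and 0.05 (-0.12 to 0.21) for *Fabp5*. *Aldh1a3*, well above background on 5 arrays, had -0.12 (-0.87 to 0.62). Among 20 receptors, partners and coregulators 14 were above 0, with a median of 0.01, where *Rarg* had -0.05 (-0.22 to 0.13) and the RXR partners *Nr4a2* and *Nr4a1* had 0.38 (-0.26 to 1.02) and -0.17 (-0.58 to 0.25). Among 18 genes known to be induced or regulated by retinoic acid 8 were above 0, with a median of -0.06, and *Meis2* had -0.19 (-0.39 to 0.01). Of all 17314 genes, 53.6% had a difference above 0, and the median was 0.01. Single mice moved the list medians: that of synthesis, binding and breakdown was -0.20 without control mouse 8.2, 0.09 without MS mouse 7.2 and 0.11 without MS mice 5.3 and 7.2, and that of induced or regulated genes was -0.14 without MS mouse 7.6.

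Within groups, the genes varied in different patterns over the 8 mice. The brightest probes of *Rara* and *Rxra* varied together (r = 0.90, on deviations from the group means), as did *Crabp1* and *Rarb* (r = 0.79) and *Rbp4* and *Cyp26b1* (r = 0.84), while *Rarb* and *Rxrb* varied in opposite directions (r = -0.90). Each value rests on 1 probe per gene. Dimmer probes of *Rarb* (r = 0.27 and 0.01) and *Rara* (r = -0.05) did not follow the brightest closely over the 8 mice. Over all 17314 genes, the patterns most like *Crabp1* were those of *Satb1*, *Dnah7a* and *Aim2* (r = 0.97, 0.97 and 0.96), whose own group differences were 0.06, -0.01 and 0.05. The patterns most like *Rbp4* were *Ccdc68*, *Krt8* and *Niban2* (r = 0.99, 0.98 and 0.98), and those most like *Cyp26b1* were *Lamp2*, *Colec12* and *Entpd8* (r = 0.99, 0.98 and 0.98). *Ikbke* was closest to *Aldh1a1* (r = 0.98), *E330032C10Rik* to *Rara* (r = 0.98), *Gpc6* to *Rarb* (r = 0.97), *Tgm3* to *Rxra* (r = 0.99), *Chmp7* to *Rxrb* (r = 0.99) and *Fkbp14* to *Rxrg* (r = 0.99). These are the highest values among many genes over 8 mice on 1 slide and are given as descriptions.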

How the data were processed

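The HT of each of 8 male mice gave 200 ng of RNA for Cy3 labeling and was hybridized to 1 Agilent array, all on 1 slide in 2 rows with 2 mice of each group per row. The authors deposited the scanner intensity of each spot, made with Agilent Feature Extraction 10.10.1.1, which subtracts background, and its flags for outliers and signal above background. They also deposited a table of log2 values, for which the submitters' processing notes name limma; how it was normalized is not given in the sources, and it served as an alternative. Array positions are on mm9 by the file headers, whose design number differs from that in the methods.

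Using limma 3.58.1 (R 4.3.3), control and outlier spots were left out, log2 intensity was averaged per probe (55681 probes from 59305 spots) and the 75th percentile of each array subtracted. Testing was limited to probes standing well above background on 4 or more arrays (37314, of which 18 lacked a value on some array) with lmFit and eBayes, two-sided, with Benjamini-Hochberg adjustment at 0.05. This script was checked on simulated data with shifts larger than any difference of the member probes, so the check does not cover differences of their size. The brightest tested probe stood for a gene in lists. The number of arrays limits the precision. Alternatives were median or quantile scaling, normexp with an offset of 50, the authors' table, other filters, slide row and mouse number as blocks, each row alone, leaving out mice, and a threshold of 0.10. Leaving out 2 mice together was chosen after seeing the data. The members, lists and alternatives were chosen with earlier results of these data known. The text names all member probes, the genes with the smallest p, 1 per direction, of each list, further retinoid genes whatever their values (1 is not reported here), the genes most like each member, and markers of lists that moved with a member.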

Additional observations from a re-analysis of the deposited data

Results flagged for a closer look

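In 3 of 78 groups of 4 mice, the lowest mouse was farther from the next than chance allows in about 1 group of 20. The count is no higher than that rate would give by itself. In all 3 the mouse was control mouse 8.2. The brighter *Rxra* probe was -3.28 there, with the next control mouse at -3.17. *Rbp3* was 1.92, with the next at 2.11, and *Stra6* was -1.79, with the next at -1.01. Control mouse 8.2 was also the lowest of the 8 mice for *Aldh1a1*, *Cyp26b1*, *Aldh1a2* and *Crabp2* and for the meningeal markers. Without it, the log2 difference of *Aldh1a1* was -0.08 in place of 0.04.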

How the results depend on the processing

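No member probe passed an adjusted p under 0.05 in limma in any of the 21 other settings. Genes of the wider lists were counted in 16 of these, and 0 passed. The lists were not counted with slide row or mouse number as a block, in either row alone or at the looser threshold. Over all probes, 1 passed when mice with the same leading number were treated as a random block and 1 with the second slide row alone, against 0 as reported. Whether these probes belonged to genes of the wider lists was not checked. The count of member probes whose groups do not overlap was 1 as reported and 2 under median scaling (2.04% of all probes), 5 in the first row alone (34.4% of all probes), 9 in the second row alone (30.1%), 6 without MS mice 5.3 and 7.2 (12.7%), and 1 to 4 with 1 mouse left out, the 4 without MS mouse 7.2 (4.36% of all) and 2 without MS mouse 5.3 (5.06%). Of the log2 differences of member probes under other settings, 241 moved by less than the spread between mice and 11 by more, 10 of those in a single slide row. Slide row as a block changed no call. No paired analysis was possible because the groups share no mouse number. Rows and leave-out settings hold fewer mice, so their groups overlap less by construction.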
